A study of Mus musculus with 8 samples.

Results

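The transcription factor genes of T cell development described here are Tcf7, Lef1, Gata3, Bcl11b, Satb1, Tox, Sox4, Tcf12 and Ets1. These 9 genes were chosen by name, with earlier results of these data known. They were matched to 9 of the 41214 gene identifiers in the count tables, and all 9 passed the filter on low counts that left 16456 genes to test. In the T cell tumours 7 of the 9 were higher than in the B cell tumours, Tcf7, Bcl11b, Tox, Satb1 and Gata3 with log2 fold changes above 6 and Lef1 and Tcf12 with 3.21 and 2.37. Sox4 and Ets1 overlapped between the lineages and did not pass the test, with log2 fold changes of 0.41 and 0.81. No member passed the test between Miz1 deltaPOZ and Miz1 wt tumours, in T or in B.

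The tumours came from the spleens of 8 C57Bl6 mice, and their mRNA was sequenced as 1 library per mouse, in 4 groups of 2 libraries. T deltaPOZ and T wt are tumours labelled as CD4+ T cell, and B deltaPOZ and B wt are tumours labelled as B cell. Miz1 is the zinc finger protein encoded by Zbtb17, and the deltaPOZ allele lacks its POZ domain, through which Miz1 molecules join into multimers. The deposited names also carry the tag Notch for all 4 T libraries and the tag ENU for both T deltaPOZ libraries, and a sequencing run number that differs between T and B. The labels do not explain these tags and give neither a Cre line nor the age of the mice. Lineage, the Notch tag and run therefore cannot be told apart, nor can genotype and the ENU tag in T.

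As background, T cells arise in the thymus from progenitors that receive Notch signals. TCF1, the product of Tcf7, is switched on early by Notch and in turn helps to switch on Gata3 and Bcl11b, and BCL11B closes off the other fates. LEF1 is the close relative of TCF1 and binds the same short DNA motif, and both can recruit beta-catenin or Groucho corepressors. TOX and SATB1 act as the cells pass through the double positive stage and choose between CD4 and CD8, while E proteins such as HEB, the product of Tcf12, drive receptor gene expression. SOX4 and ETS1 serve both B and T cell precursors.

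Upstream sequences are shown for Gata3, Satb1 and Lef1, whose levels differ between the lineages and whose 250-base windows before a RefSeq start lie outside the exons of the gene, and a short stretch is shown for Bcl11b. The table of RefSeq windows (GRCm38.p6) held 7 of the 9 members, without Tox and Ets1. The Tcf7 window also lies outside the annotated exons of its gene and is not shown. The Gata3 window is chr2:9878601-9878850 on the minus strand, directly before the start of a GENCODE transcript and inside an intron of longer ones. The Satb1 window is chr17:51833291-51833540 on the minus strand, directly before the outermost GENCODE start. The Lef1 window is chr3:131110047-131110296 on the plus strand, upstream of the gene as annotated. The Bcl11b stretch of 30 bases is chr12:108003486-108003515 on the minus strand and lies within 188 bases of its window that GENCODE places in an exon. Each is written 5′ to 3′, and the capitals in Bcl11b mark the letters CTTTGA of the TCF1 and LEF1 motif.
Gata3: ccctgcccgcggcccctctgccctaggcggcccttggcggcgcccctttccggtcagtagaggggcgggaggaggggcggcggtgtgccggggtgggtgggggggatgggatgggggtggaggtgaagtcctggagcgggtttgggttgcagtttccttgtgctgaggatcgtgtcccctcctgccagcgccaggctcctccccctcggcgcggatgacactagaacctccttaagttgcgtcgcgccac
Satb1: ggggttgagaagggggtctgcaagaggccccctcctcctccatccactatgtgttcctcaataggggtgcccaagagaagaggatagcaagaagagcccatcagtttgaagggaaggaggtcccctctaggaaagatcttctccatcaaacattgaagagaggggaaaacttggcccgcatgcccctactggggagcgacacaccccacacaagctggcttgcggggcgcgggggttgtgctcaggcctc
Lef1: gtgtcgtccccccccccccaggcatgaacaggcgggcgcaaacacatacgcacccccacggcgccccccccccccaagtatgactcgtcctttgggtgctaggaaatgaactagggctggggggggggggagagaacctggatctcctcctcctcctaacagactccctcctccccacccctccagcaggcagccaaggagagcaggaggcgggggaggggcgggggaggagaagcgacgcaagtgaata
Bcl11b: agaggccaagcaCTTTGAagaagtgtgaga
Both strands of the 7 windows were searched for CTTTGA, for the E protein motif CAGCTG, for CACGTG of Myc and Max, for the GATA motif AGATAA and for the RUNX motif TGTGGT. The letters CTTTGA stood in the Bcl11b window alone among the 7, and in 14.1% of all 27025 windows. CAGCTG stood in the windows of Tcf7, Sox4 and Tcf12, and in 12.7% of all windows. In the Tcf7 window it follows an atg in frame (atgccgCAGCTG), with no stop codon up to the end of the window. The match there may therefore lie in coding sequence, although GENCODE places no base of that window in an exon of Tcf7. The motif of Myc and Max stood in none of the 7, against 6.04% of all windows. The GATA motif was also in none, against 10.2% of all windows, as was the RUNX motif, against 14.2%. The windows of the genes that were higher in T differed in their number of CG dinucleotides. Those of Tcf12 and Tcf7 held 38 and 37, that of Gata3 19, that of Lef1 11, that of Bcl11b 9 and that of Satb1 5. The median over all windows was 6. A match is a run of letters and not a site known to be bound.

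The libraries held 44.3 to 58.3 M gene counts, so a gene without a count lay below 0.0515 to 0.0677 CPM (counts per M gene counts; 3 counts, counting error only). Zbtb17 stood at 36.9 to 49.6 CPM in the T libraries and at 48.0 to 66.1 CPM in the B libraries, and a count over the whole gene does not show the state of the POZ exons. The T libraries held the T cell receptor and CD3 genes (16 of 16 T cell markers higher in T), but beside Cd4 at 98.7 to 431.7 CPM they held Cd8a at 355.6 to 1246 CPM. Whether both came from the same cells was not tested. They also held red cell precursor RNA, with a summed level of 9 erythroid genes of 4658 to 22657 CPM against 4.89 to 221.9 CPM in B, and B cell marker RNA of 390.6 to 1229 CPM against 2914 to 4216 CPM in B. Several libraries stood apart. In the B tumours sex followed genotype, with Xist at 0.936 and 0.757 CPM in B deltaPOZ and at 975.1 and 1477 CPM in B wt. T deltaPOZ 1 held Rag1 at 8.30 CPM against 758.4 to 1068 CPM in the other T libraries. T wt 1 held Xist at 1246 CPM against 11.8 to 35.4 CPM in the rest of the T libraries. It also held the Y chromosome gene Ddx3y, at 22.5 CPM. Ddx3y stood at 141.9 to 184.0 CPM in the rest of the T libraries and at 0.0949 and 0.289 CPM in B wt. In T deltaPOZ 2, 25387 genes had a count against 18339 to 21078 elsewhere, and B wt 2 held the myeloid gene Lyz2 at 633.4 CPM. What these differences contribute to the results below was not tested. No 2 libraries held identical counts.

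Tcf7 (GRCm38 chr11:52252371-52283014, minus strand) had the largest difference between lineages among the members. It was measured at 388.2 and 474.1 CPM in T deltaPOZ, 654.5 and 541.8 CPM in T wt, 3.76 and 0.937 CPM in B deltaPOZ, and 1.14 and 2.82 CPM in B wt. The lowest T library was 103.1-fold above the highest B library. The fitted log2 fold change of T over B was 7.88 (SE 0.58; edgeR adjusted p = 0.00046). In bulk tumours, fewer cells of a type and less RNA per cell cannot be told apart, here and below.

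Lef1 (chr3:131110471-131224356, plus strand) shared the high T level of Tcf7 but kept a sizeable level in B. It was measured at 413.0 and 335.7 CPM in T deltaPOZ, 330.9 and 405.5 CPM in T wt, 33.7 and 22.7 CPM in B deltaPOZ, and 28.6 and 85.6 CPM in B wt. The T libraries lay close together, the B libraries spread 3.76-fold with B wt 2 on top, and the lineages did not overlap. Its log2 fold change of T over B was 3.21 (SE 0.37; edgeR adjusted p = 0.0017).

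Gata3 (chr2:9857078-9890034, minus strand), the zinc finger factor needed from the first steps of T cell development to the CD4 fate, was a low gene in every library. It was measured at 12.8 and 10.1 CPM in T deltaPOZ, 11.8 and 7.82 CPM in T wt, 0.156 and 0.0997 CPM in B deltaPOZ, and 0.0190 and 0.156 CPM in B wt. The B values rest on 8 and 5 counts in B deltaPOZ and 1 and 7 counts in B wt, so counting error alone is large there. The log2 fold change of T over B was 6.63 (SE 0.61; edgeR adjusted p = 0.00085).

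Bcl11b (chr12:107910403-108003602, minus strand), the zinc finger gene that marks commitment to the T lineage, was measured at 198.6 and 201.4 CPM in T deltaPOZ, 347.9 and 378.6 CPM in T wt, 1.66 and 0.638 CPM in B deltaPOZ, and 0.437 and 3.27 CPM in B wt. Both T deltaPOZ libraries lay below both T wt libraries, and all T libraries lay at least 60.8-fold above all B libraries. Its log2 fold change of T over B was 7.53 (SE 0.70; edgeR adjusted p = 0.00088).

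Satb1 (chr17:51736187-51833290, minus strand), which encodes a chromatin organizer of thymocytes, had the highest CPM among the members in T deltaPOZ 1. It was measured at 1238 and 686.4 CPM in T deltaPOZ, 1226 and 986.7 CPM in T wt, 10.5 and 7.42 CPM in B deltaPOZ, and 3.91 and 19.9 CPM in B wt. T deltaPOZ 2 was the lowest T library and B wt 2 the highest B library. Tox (chr4:6686353-6991557, minus strand), an HMG-box gene needed for CD4 lineage cells, was measured at 35.3 and 17.2 CPM in T deltaPOZ, 53.6 and 24.2 CPM in T wt, 0.371 and 0.0797 CPM in B deltaPOZ, and 0.133 and 0.512 CPM in B wt. In both T groups the replicates of Tox lay further apart than the group means. The log2 fold changes of T over B were 6.64 (SE 0.61; edgeR adjusted p = 0.00083) for Satb1 and 6.89 (SE 0.72; edgeR adjusted p = 0.0013) for Tox.

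Tcf12 (chr9:71842688-72111871, minus strand), which encodes the E protein HEB, was the steadiest member within the T tumours. It was measured at 744.5 and 718.8 CPM in T deltaPOZ, 772.7 and 826.0 CPM in T wt, 111.1 and 142.4 CPM in B deltaPOZ, and 208.1 and 138.6 CPM in B wt. The T libraries spread only 1.15-fold and lay at least 3.45-fold above every B library. The log2 fold change of T over B was 2.37 (SE 0.17; edgeR adjusted p = 0.00046), the smallest of the 7 that passed, with the smallest error.

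Ets1 (chr9:32636221-32757820, plus strand), whose ETS-domain product acts in B, T and NK cells, was measured at 689 and 937.4 CPM in T deltaPOZ, 1324 and 1029 CPM in T wt, 549.6 and 607.9 CPM in B deltaPOZ, and 745.8 and 333.6 CPM in B wt. B wt 1 lay above T deltaPOZ 1, so the lineages overlapped. The log2 fold change of T over B was 0.81 (SE 0.27; edgeR adjusted p = 0.055) and just missed the threshold of 0.05. Its 95% interval of 0.17 to 1.44 left out 0. It passed with DESeq2 (0.80, adjusted p = 0.031), with limma-voom (0.85, adjusted p = 0.040) and, in edgeR, without B wt 1 (1.15, adjusted p = 0.012).

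Sox4 (chr13:28948919-28953713, minus strand), an HMG-box gene of early lymphocyte precursors, was measured at 287.1 and 216.9 CPM in T deltaPOZ, 286.0 and 281.0 CPM in T wt, 179.9 and 147.0 CPM in B deltaPOZ, and 304.2 and 188.3 CPM in B wt. B wt 1 had the highest level of all 8 libraries. The log2 fold change of T over B was 0.41 (SE 0.19; edgeR adjusted p = 0.13), and 0.61 (adjusted p = 0.048) without B wt 1. The exons of Sox4 overlap those of Gm26735 on the other strand over 54.6% of their length. Gm26735 held 19 to 154 counts in the libraries, and the Sox4 counts carry that uncertainty because no source used here gives the strand setting of the counting.

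**Figure D1:**
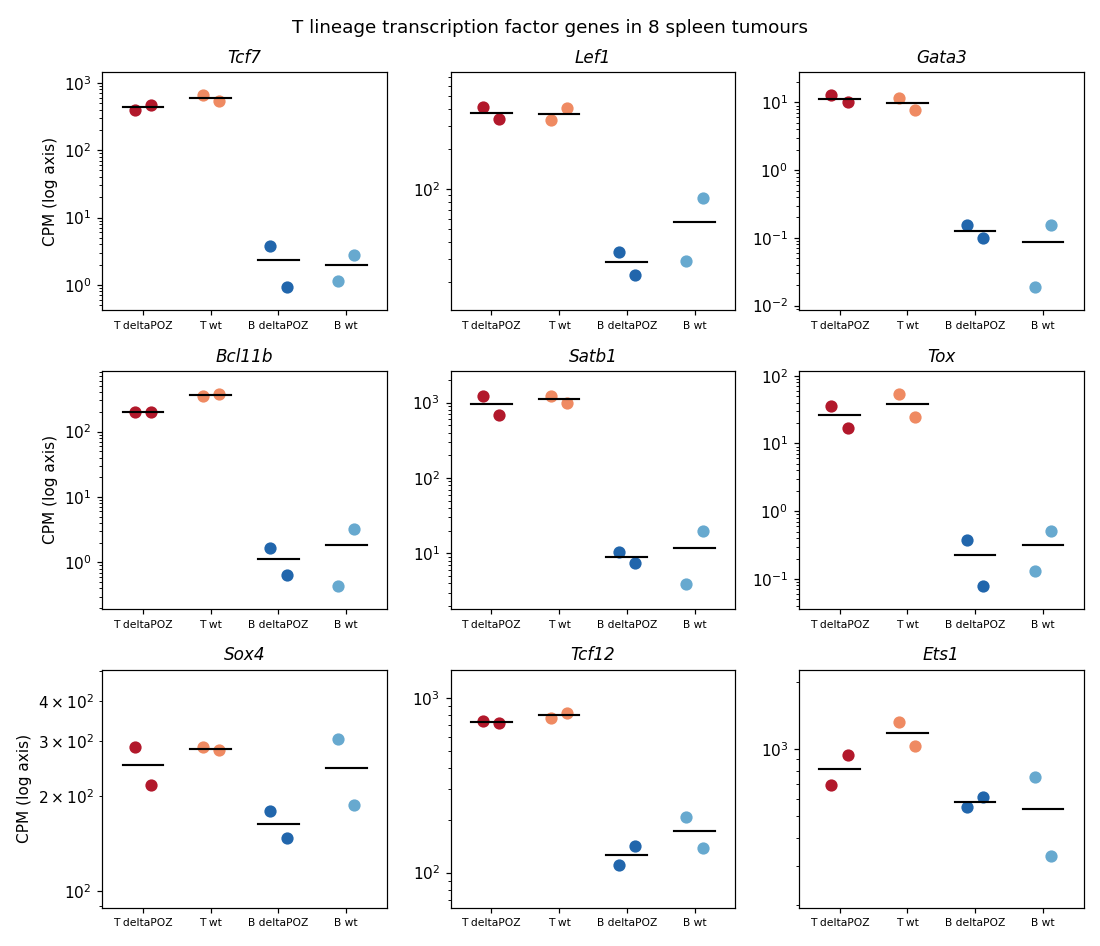
Level of each member in every library, in CPM on a log axis that differs between panels, with T deltaPOZ and T wt left of B deltaPOZ and B wt; points are libraries and bars are means of 2. Tcf7, Lef1, Gata3, Bcl11b, Satb1, Tox and Tcf12 lie higher in all T than in all B libraries, while Sox4 and Ets1 overlap.

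Across the whole comparison of T with B, 7 of 9 members were higher, where 19.3% of the 16456 tested genes were higher, 16% lower and 35.3% either. At an unadjusted p under 0.05 the members numbered 8 of 9, against 46.6% of all genes. The median log2 fold change was 6.63 over the members and 0.05 over all tested genes. The 7 members that passed were those whose 4 T libraries all lay above all 4 B libraries, which held for 20.1% of all genes. The 5 members Tcf7, Bcl11b, Tox, Satb1 and Gata3 passed with a log2 fold change above 6, as did 3.35% of all genes. The members were picked as T lineage genes with earlier results of these data known, so these counts are not an independent test.

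**Figure D2:**
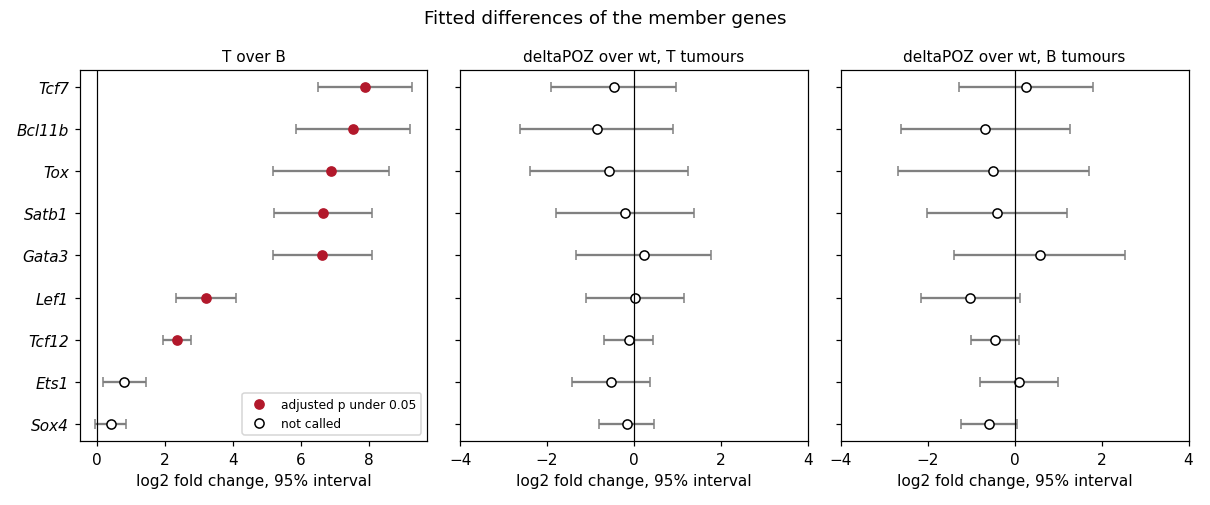
Fitted log2 fold changes of the members with 95% intervals for T over B, deltaPOZ over wt in T tumours and deltaPOZ over wt in B tumours; filled points passed the edgeR test at an adjusted p of 0.05. Only points of the T over B panel are filled, and all intervals of both genotype panels cover 0.

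Levels of different members can be compared per length, as mean CPM per kilobase of all annotated exons of a gene, which counts exons of isoforms that may not be used. In the T tumours Tcf7 stood highest at 196.1 CPM per kilobase, followed by Ets1 at 117.4, Sox4 at 55.8, Satb1 at 54.3, Tcf12 at 49.3, Lef1 at 42.2, Bcl11b at 34.7, Tox at 4.28 and Gata3 at 2.67 CPM per kilobase. Neighbours in that order overlapped between libraries, except that Ets1 lay above Sox4 and Bcl11b above Tox in all libraries. In the B tumours Ets1 stood highest at 66.0 CPM per kilobase, followed by Sox4 at 42.7, Tcf12 at 9.66, Lef1 at 4.85, Tcf7 at 0.825, Satb1 at 0.548, Bcl11b at 0.185, Tox at 0.0360 and Gata3 at 0.0270 CPM per kilobase. There Sox4 lay above Tcf12 and Lef1 above Tcf7 in all libraries, and the other neighbours overlapped. Ets1 and Sox4 made up 52.9% and 34.2% of the summed member level per length in B. In T, Tcf7 alone made up 35.2% of that sum.

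The order changed little with genotype. In T deltaPOZ, Lef1 at 42.6 ± 6.2 CPM per kilobase lay above Bcl11b at 24.7 ± 0.24 without overlap, whereas in T wt Bcl11b at 44.8 ± 2.7 and Lef1 at 41.9 ± 6.0 CPM per kilobase overlapped (SD, n = 2 each). Tox and Gata3 overlapped in T deltaPOZ but not in T wt, where Tox was higher.

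Several members have a relative in the same gene family, and the share of the member was taken in 7 such pairs, which were picked with values of these data known. Shares are of the summed level per length of the pair. Tcf7 made up 75.9 to 86.9% of Tcf7 plus Lef1 in the T libraries, against 9.95 to 27.2% in the B libraries, where Lef1 was the more abundant. Bcl11b made up 94.4 to 97.2% of Bcl11b plus Bcl11a, a gene that B cell development needs, in T, against 1.20 to 5.73% in B. Tcf12 made up 47.4 to 51.3% of Tcf12 plus Tcf3, the gene of the E2A proteins, in T, against 7.94 to 11.4% in B. Tcf12 made up 98.3 to 99.5% of Tcf12 plus Tcf4, another E protein gene, in T, against 64.3 to 83.7% in B. Tox made up 10.6 to 26.2% of Tox plus Tox4 in T, against 0.0613 to 0.433% in B. In these 5 pairs all T libraries lay above all B libraries. Gata3 ran the other way, at 5.90 to 19.8% of Gata3 plus Gata1 in T, against 38.0 to 100% in B, where both genes were near 0 counts. Ets1 made up 83.3 to 93.1% of Ets1 plus Ets2 in T, against 91.5 to 97.2% in B, and the lineages overlapped. Between genotypes, the share of Bcl11b was 94.4 and 95.2% in T deltaPOZ and 96.9 and 97.2% in T wt. The share of Tcf12 beside Tcf3 was 47.4 and 48.4% in T deltaPOZ, also below both T wt libraries. In the other pairs the genotypes overlapped in T. In B the shares of Tcf7 beside Lef1 and of Tcf12 beside Tcf3 were higher in both B deltaPOZ than in both B wt libraries. The other pairs overlapped there. With 2 libraries against 2, a 2-sided permutation test cannot give a p under 0.33, so such separation is common by chance. Among all single genes, 17% were lower and 15.4% higher in deltaPOZ without overlap in T, and 19.1% lower and 19.9% higher in B. The shares that separated are therefore not read as genotype differences.

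**Figure D3:**
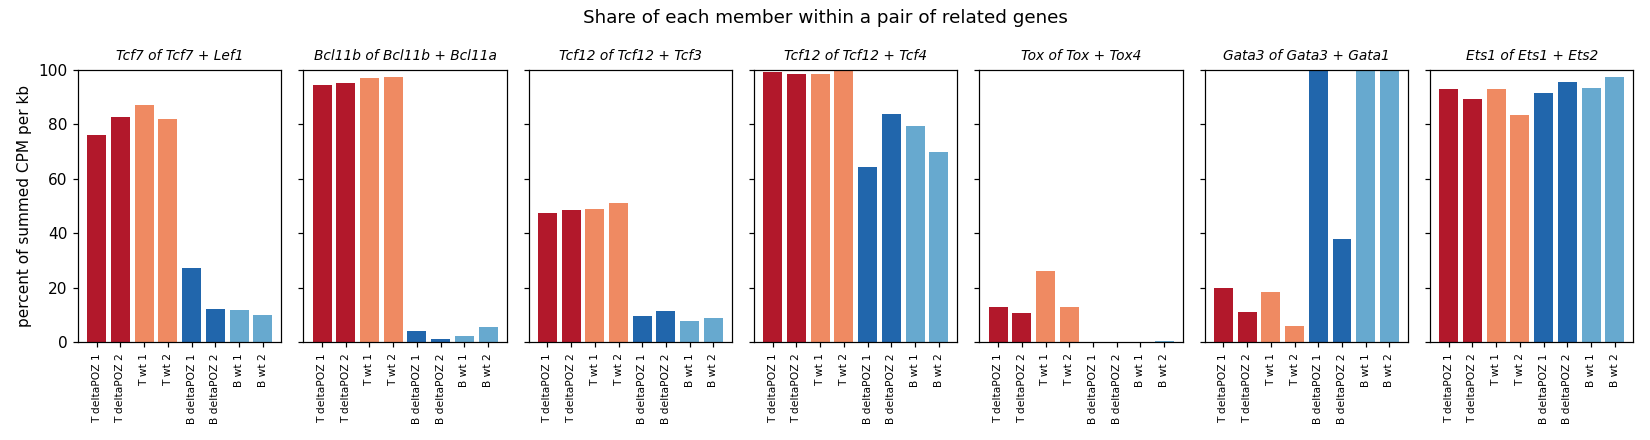
Share of a member within a pair of related genes, in percent of the summed CPM per kilobase, 1 bar per library with T deltaPOZ and T wt left of B deltaPOZ and B wt. The 4 T libraries stand above the 4 B libraries in the panels of Tcf7, Bcl11b, Tcf12 and Tox, below them in that of Gata3, and overlap with them in that of Ets1, with Bcl11b at 94.4 to 97.2% in T against 1.20 to 5.73% in B.

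The small levels of Tcf7, Bcl11b, Satb1, Tox and Gata3 in the B tumours can be set beside those of T cell markers in the same libraries. As a percent of the mean T level, 16 T cell markers had medians of 1.16% in B deltaPOZ 1, 0.616% in B deltaPOZ 2, 0.529% in B wt 1 and 1.69% in B wt 2. In the same libraries Bcl11b stood at 0.589, 0.227, 0.155 and 1.16% of its mean T level, Satb1 at 1.02, 0.717, 0.378 and 1.92%, and Tox at 1.14, 0.245, 0.408 and 1.57%. Tcf7 stood at 0.731, 0.182, 0.221 and 0.549%, and Gata3 at 1.47, 0.938, 0.179 and 1.47%. These 5 genes and the marker median were higher in B deltaPOZ 1 and B wt 2 than in B deltaPOZ 2 and B wt 1, so the replicates of each genotype differed in both. Individual markers ran as low as 0.0740% (Trbc1 in B deltaPOZ 2) and as high as 74.5% (Cd2 in B wt 1), and Cd3d stood at 0.886, 0.253, 0.195 and 1.12%. The part of T cells in these levels was not tested. Lef1 at 6.12 to 23.0%, Tcf12 at 14.5 to 27.2%, Ets1 at 33.5 to 75.0% and Sox4 at 54.9 to 113.6% of their T levels stood above the marker medians in every B library. Satb1 and Gata3 stood above the median in some B libraries, and Lef1 still lay within the range of the markers in all of them.

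**Figure D4:**
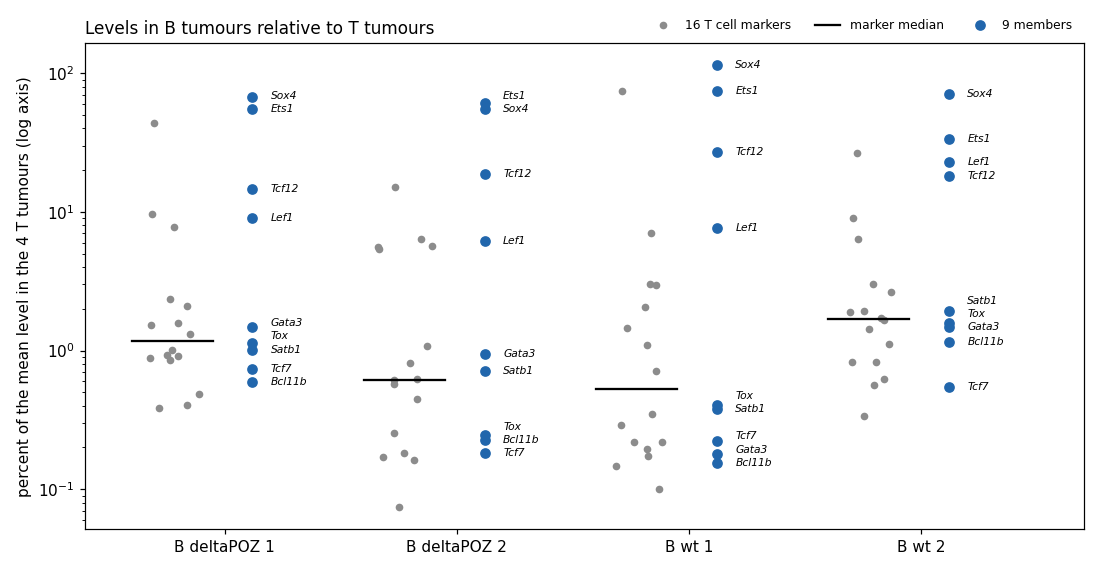
Level in each B library as a percent of the mean level in the 4 T tumours, on a log axis, for 16 T cell markers (grey, line at the median) and the 9 members (blue). Tcf7, Bcl11b, Satb1, Tox and Gata3 lie within the range of the markers, and Lef1, Tcf12, Ets1 and Sox4 lie above the marker median.

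In T tumours, deltaPOZ and wt were compared for the effect of the deletion that the series title names. No member passed the test (0 of 9 with edgeR, DESeq2 or limma-voom, and 0 at an unadjusted edgeR p under 0.05), as was true of all tested genes in edgeR (0%, with 2.65% at an unadjusted p under 0.05). The log2 fold changes of deltaPOZ over wt ran from -0.86 to 0.22 with a median of -0.20, against 0.00 over all tested genes. Bcl11b had the most negative value, -0.86 (SE 0.74, 95% interval -2.62 to 0.90; edgeR adjusted p = 1). Its unadjusted p was 0.020 with limma-voom (adjusted p = 1.0) and 0.0034 in edgeR with the T libraries fitted alone (adjusted p = 0.97). Ets1 had -0.53 (SE 0.38), Tox -0.57 (SE 0.76), Tcf7 -0.47 (SE 0.61) and Tcf12 -0.13 (SE 0.23). Lef1 had 0.02 (SE 0.48), Gata3 0.22 (SE 0.65), Satb1 -0.20 (SE 0.67) and Sox4 -0.17 (SE 0.27), each with an edgeR adjusted p of 1. Both T deltaPOZ libraries lay below both T wt libraries for Tcf7, Bcl11b, Tcf12 and Ets1, and the groups overlapped for the other 5. That is 4 of 9 lower, where 17% of all genes were lower without overlap and 15.4% higher. The B cell marker sum was 1229 and 529.5 CPM in T deltaPOZ and 1167 and 390.6 CPM in T wt, which overlapped. Other values moved with genotype in T, since Cd4 stood at 98.7 and 118.5 CPM in T deltaPOZ, below 331.2 and 431.7 CPM in T wt. The summed level of the 16 T cell markers was 3084 and 3420 CPM in T deltaPOZ, below 3683 and 3819 CPM in T wt, and its part in the values of the members was not tested. The sign of Lef1 turned without T wt 1 (-0.12) and without T deltaPOZ 1 (-0.14), and that of Satb1 without T deltaPOZ 2 (0.16).

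In B tumours no member passed the test between deltaPOZ and wt (0 of 9 with edgeR, DESeq2 or limma-voom, and 0 at an unadjusted edgeR p under 0.05), against 0.00608% of all genes called and 12.1% at an unadjusted p under 0.05. The log2 fold changes ran from -1.02 to 0.58 with a median of -0.45, against -0.01 over all tested genes. Sox4 was the member with groups that did not overlap, with both B deltaPOZ libraries below both B wt libraries (1 of 9, against 19.1% of all genes lower and 19.9% higher without overlap). Its log2 fold change was -0.59 (SE 0.27, 95% interval -1.23 to 0.05; edgeR adjusted p = 0.44). Lef1 had -1.02 (SE 0.48; edgeR adjusted p = 0.45), which rested on B wt 2 and was 0.04 without it. Tcf12 had -0.45 (SE 0.23; edgeR adjusted p = 0.48). Ets1 had 0.10 (SE 0.38) and came to 0.80 without B wt 1 and to -0.31 without B wt 2. For the 5 genes that were low in B the replicates of a genotype lay further apart than the genotypes. Their values were 0.25 (SE 0.65) for Tcf7, 0.58 (SE 0.83) for Gata3, -0.41 (SE 0.68) for Satb1, -0.49 (SE 0.93) for Tox and -0.67 (SE 0.82) for Bcl11b. Without B wt 2, Bcl11b came to 1.45 and Satb1 to 1.26. Sex and genotype cannot be told apart in the B tumours.

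Averaged over both lineages no member passed the test of deltaPOZ against wt (smallest edgeR adjusted p = 0.59, with 1 of 9 values above 0, against 49.8% of all genes), as held for all genes (0%). The difference of the deltaPOZ effects, T minus B, also passed for no member (smallest edgeR adjusted p = 0.84, for Lef1) and for no gene (0%). At an unadjusted edgeR p under 0.05 the members again numbered 0 in both, against 8.9% and 6.26% of all genes, and DESeq2 and limma-voom called no member in either.

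Some members lie on chromosomes whose genes stood apart in a library as a whole. In B deltaPOZ 1 the expressed genes of chromosome 3 had a median log2 difference of 0.53 from the mean of the other B libraries, while Lef1 there had -0.18. In B wt 2 chromosome 3 had -0.23 while Lef1 had 1.61. In B wt 1 chromosome 12 had 0.61 while Bcl11b had -1.72. Lef1 and Bcl11b went the other way from their chromosome in these libraries. The same held for chromosome 3 at 0.27 in T deltaPOZ 2, where Lef1 had -0.18, and for chromosome 12 at -0.26 in B deltaPOZ 1, where Bcl11b had 0.73. In B deltaPOZ 2 both went the same way, Lef1 at -0.94 with chromosome 3 at -0.11 and Bcl11b at -1.04 with chromosome 12 at -0.17. Lef1 at -0.50 also went with chromosome 3 at -0.13 in B wt 1. The B values of Bcl11b rest on 23 to 147 counts, and the part of the chromosomes was not tested. On chromosome 4 the median was 0.46 in B deltaPOZ 1, where Tox had 0.88, -0.24 in B wt 1, where Tox had -0.80, and -0.29 in B wt 2, where Tox had 1.45. The chromosomes of the other members stayed within 0.2 of 0 in every library.

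Other transcription factors of T cell development, formed a list of 33. Of these, 15 were higher in T, 4 were lower and 14 did not pass, where 19.3% of all tested genes were higher and 16% lower. The median log2 fold change was 1.21, against 0.05 over all tested genes. The higher genes with the largest log2 fold changes were Id1, an inhibitor of E proteins (6.41, SE 1.17), the Ikaros family gene Ikzf2 (5.80, SE 0.93), and the immediate early genes Egr3 (3.09, SE 0.81), Egr1 (3.09, SE 0.64; edgeR adjusted p = 0.011) and Egr2, the last at 2.88 to 17.5 CPM in T against 0.219 to 1.67 CPM in B (edgeR adjusted p = 0.010). Ikzf2 reached 383.9 CPM in T wt 1 against 47.2 to 134.1 CPM in the other T libraries. The 4 that were lower in T were Bach2, a repressor of plasma cell genes (-3.17, SE 0.34), Foxp1, needed in B cell precursors (-1.90, SE 0.27), Tcf3 (-0.84, SE 0.18) and Fli1 (-0.65, SE 0.19). The call of Tcf3 was lost without T deltaPOZ 2, that of Egr3 without any 1 of 5 libraries and that of Fli1 without any 1 of 6. Between genotypes none of the 33 passed in T (2 at an unadjusted edgeR p under 0.05; none with DESeq2 or limma-voom). Zbtb16 had 2.75 (SE 0.68) there, Ikzf3 -0.75 (SE 0.31) and Bach2 -1.07 (SE 0.45), each with an edgeR adjusted p of 1. In B none passed either (4 at an unadjusted edgeR p under 0.05; none with DESeq2 or limma-voom), with Myb at -1.07 (SE 0.30; edgeR adjusted p = 0.29), Tcf3 at -0.85 (SE 0.26; 0.32) and Nfatc2 at -1.46 (SE 0.49; 0.34).

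Of 15 family relatives of the members, 13 were tested, 3 were higher in T, 3 were lower and 7 did not pass, with a median log2 fold change of 0.41. These counts lie near the 19.3% higher and 16% lower over all tested genes. The lower ones were Tcf4 (-2.53, SE 0.43) and Tcf3, relatives of Tcf12, and Bcl11a (-1.87, SE 0.34), the relative of Bcl11b. Bcl11a stood at 16.6 to 19.3 CPM in the T libraries and at 29.5 to 87.4 CPM in the B libraries. The higher ones were Gata1, Gata2 and Tcf7l1. Gata1, the GATA factor of red cells, stood at 31.6 to 76.5 CPM in T and had no count in 3 B libraries, and it moved with the erythroid genes, all 9 of which were higher in T. Gata2 at 0.641 to 1.24 CPM and Tcf7l1 at 0.365 to 0.799 CPM were low in T and at or near 0 counts in B. Between genotypes none of the 13 passed in T (0 at an unadjusted edgeR p under 0.05; none with DESeq2 or limma-voom) or in B (2 at an unadjusted edgeR p under 0.05; Sox13 with DESeq2, none with limma-voom). In T, Tcf7l2 had 1.17 (SE 0.94), Sox13 0.75 (SE 0.57) and Ets2 -0.90 (SE 0.81), each with an edgeR adjusted p of 1. In B, Sox13 stood at 0.0780 and 0.0997 CPM in B deltaPOZ and 1.67 and 2.38 CPM in B wt, a log2 difference of -4.47 (SE 0.64; edgeR adjusted p = 0.096).

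Genes whose products bind TCF1 and LEF1 or act in beta-catenin signalling formed a list of 14. Of these, 6 were higher in T, 3 were lower and 5 did not pass, with a median log2 fold change of 0.80, where 19.3% of all tested genes were higher and 16% lower. Axin2, a feedback inhibitor of the pathway and a common readout of it, had the largest difference (4.30, SE 0.44; edgeR adjusted p = 0.0012), at 13.7 to 25.7 CPM in T against 0.219 to 2.18 CPM in B. The short Groucho relative Aes (3.15, SE 0.46), plakoglobin Jup (3.12, SE 0.41) and the Groucho genes Tle2 (2.35, SE 0.66) and Tle3 (1.48, SE 0.17) were also higher. Bcl9 (-1.04, SE 0.31), Tle4 (-0.99, SE 0.27) and Apc (-0.39, SE 0.13) were lower. These 3 calls and that of Tle2 were lost without any 1 of 5 or more of the libraries. Beta-catenin itself, Ctnnb1, stood at 692.5 to 739.3 CPM in T and 621.8 to 761.0 CPM in B. Between genotypes none of the 14 passed in T (1 at an unadjusted edgeR p under 0.05; Jup with DESeq2, none with limma-voom) or in B (3 at an unadjusted edgeR p under 0.05; Tle1 and Axin2 with DESeq2, none with limma-voom). In T, Jup had -2.04 (SE 0.55), Tle4 -0.88 (SE 0.38) and Apc -0.40 (SE 0.18), each with an edgeR adjusted p of 1. In B, Tle1 stood at 66.0 and 35.7 CPM in B deltaPOZ and 3.72 and 10.9 CPM in B wt (log2 fold change 2.80, SE 0.55; edgeR adjusted p = 0.20), Axin2 had -2.16 (SE 0.58; 0.28) and Apc -0.49 (SE 0.18; 0.37).

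For each member the 2 protein coding genes with the most similar pattern were found among 13663 candidates, by the root mean square difference of centred log2 CPM over the 8 libraries. Tcf7 was nearest to Sh2d1a (0.22) and Trat1 (0.28), both genes of T cell signalling. Bcl11b was nearest to Cd3d (0.31) and Cd8a (0.33), Satb1 to Skap1 (0.33) and Prkch (0.36), and Gata3 to Sla2 (0.39) and Prkch (0.43). Tox was nearest to 4930486L24Rik (0.31) and Hectd2 (0.36). The genes nearest to Lef1, Lpin3 (0.27) and Map1a (0.29), were at most 1.39 CPM in any library. Tcf12 was nearest to Desi1 (0.06) and Plekha4 (0.14), Sox4 to Kif4 (0.10), a mitotic kinesin, and Slc9a8 (0.11), and Ets1 to 1110032A03Rik (0.19) and Cdo1 (0.19). All 8 libraries of both lineages entered this measure.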

How the data were processed

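The deposited files hold counts per gene, made by the authors. Per the submitters' processing notes the build was mm10/GRCm38 and the tools were TopHat2 2.0.10, SAMtools, HTSeq and DESeq. Per the labels' protocols, MagMax-96 extracts were made into TruSeq Stranded mRNA libraries. How HTSeq was set for strand, and with which annotation, is not given in the sources used here. Counts outside genes (30.4 to 39.3% of gene, no-feature and ambiguous counts) and ambiguous counts (0.471 to 0.554%) were left out. Gene names came from GENCODE M21, which held 40340 of the 41214 identifiers. The other 874, with 0.251% or less of any library, stayed in the fits.

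From these counts edgeR 4.0.16 computed normalization factors by trimmed mean of M values (0.929 to 1.087), and filterByExpr kept 16456 of 27639 genes with a count. The quasi-likelihood fit (glmQLFit, glmQLFTest) took the 8 libraries together, with a mean for each group, 4 residual degrees of freedom and a biological coefficient of variation of 0.45. Benjamini-Hochberg adjustment covered all tested genes, and an adjusted p under 0.05 was called. SE is the log2 fold change over the square root of F, without sign. CPM include the factors. Also used were limma 3.58.1, DESeq2 1.42.0, R 4.3.3, Python 3.11.15, pandas 2.3.3, NumPy 2.4.6 and matplotlib 3.10.9. In simulated data edgeR recovered 14.9, 70.1 and 92.4% of genes changed 2-, 4- and 8-fold between T and B, with 8 false calls. Between genotypes it recovered 0, 34.3 and 65.2% in T with 7 false calls, and 0, 43.3 and 59.1% in B with 2. Each simulated gene had its mean over the 8 libraries as its level in all groups, and changed genes were drawn above a minimum mean level. The rates for B therefore do not cover Tcf7, Bcl11b, Satb1, Tox and Gata3, whose levels in B were far below their means.

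Members and gene lists were chosen with earlier results of these data known. Some genes of the lists are not reported here. Named were all members and, from each list, the genes that passed (between lineages the 5 with the largest change per direction) or else the 3 with the smallest p. Ctnnb1, markers and library-specific genes were named after their values were seen. Alternatives were other size factors, filters and tools, each lineage alone, leaving out each library and, chosen after seeing the data, leaving out B wt 2, T wt 1 and T deltaPOZ 2 together.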

Additional observations from a re-analysis of the deposited data

Results flagged for a closer look

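Of 18 groups of 4 libraries checked (each member in T and in B), 1 held a library far from the others. Sox4 stood at 216.9 CPM in T deltaPOZ 2, below 287.1 CPM in T deltaPOZ 1 and 281.0 and 286.0 CPM in T wt. Its gap to the nearest library was 0.914 of the range of the 4, above Dixon's critical value for 4 samples at the 95% level, which chance exceeds in about 1 in 20 such groups. T deltaPOZ 2 was also the library with counts in the most genes.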

How the results depend on the processing

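Tcf7, Lef1, Gata3, Bcl11b, Satb1, Tox and Tcf12 stayed higher in T than in B under every alternative run, 7 members in all under median-of-ratios factors and without 3 libraries together, and 8 with Ets1 under upper quartile factors (0.83), library totals alone (0.91), no filter on low counts (0.80), a filter of 5 CPM in 2 libraries (0.86), DESeq2 and limma-voom. Leaving out 1 library gave 7 to 9 members. Without a filter, which tests more genes, 1 member passed in B (Lef1, -1.02, adjusted p = 0.0040) and 1 in the mean of T and B (Bcl11b, -0.77, adjusted p = 0.0059). The cause was not tested. Genotype values of several members turned sign when 1 library was left out: in B from -1.02 to 1.11 for Tcf7, -1.60 to 0.042 for Lef1, -0.28 to 2.67 for Gata3, -1.50 to 1.45 for Bcl11b, -1.15 to 1.26 for Satb1, -1.91 to 0.82 for Tox and -0.31 to 0.80 for Ets1. In T they ran from -0.14 to 0.18 for Lef1, -0.048 to 0.54 for Gata3, -0.69 to 0.16 for Satb1, -1.18 to 0.11 for Tox and -0.39 to 0.020 for Sox4. Limma-voom gave 0.060 for Satb1 in B. Without B wt 2, T wt 1 and T deltaPOZ 2 together, Satb1 came to 0.30, Tox to 0.52 and Sox4 to 0.0085 in T, and Bcl11b to 1.38, Satb1 to 1.19, Tox to 0.74 and Ets1 to -0.36 in B, and Gata2, with no count left in B, to 0. Leaving out 1 library took Gata2 in B from -5.27 to 0. Among the list genes named between T and B, calls of Apc were lost without any 1 of the 8 libraries, of Tle2 without any of 7, of Bcl9 and Fli1 without any of 6, of Egr3 and Tle4 without any of 5, and of Tcf3 without T deltaPOZ 2. The tested genes called between T and B fell to 3621 without T deltaPOZ 2, 3840 without T wt 1 and 1312 without the 3 libraries, against 5801. Library totals alone put 60.6% of the called genes higher in T and the 3 libraries left out 65.3%, against 54.7%, and library totals alone shifted the median log2 fold change of all genes to 0.14. In B 1324 genes passed without a filter, 598 with DESeq2 and 0 to 9 otherwise, against 1, and in T 254 and 57, against 0. Each lineage fitted alone tested 8 of 9 members in B, without Gata3. No paired analysis was possible because the labels give no replicate numbers, and those used here only name the libraries. Depth limits Gata3 and Tox in B, and 2 libraries per group limit every genotype comparison.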
